A study of Streblospio benedicti with 24 samples.

Results

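The 150 coding genes whose mRNA level varied least among 24 libraries of unfertilized *Streblospio benedicti* oocytes are described here. They were chosen by measured values. The level of a gene was its CPM, its counts per 1000000 counts on all genes of that library. Of the 26216 genes in the files, 20221 are coding by their identifier, and 5343 of these had a mean of at least 10 CPM over the 24 libraries. The 100 genes with the highest means were set aside, as were 145 genes whose PP and LL libraries, or whose PL and LP libraries, did not overlap, and 2 more genes named in the rule. The remaining 5096 genes are called eligible. The 150 eligible genes (2.94%) with the lowest coefficient of variation, the SD divided by the mean over the 24 libraries (CV), are called the steadiest genes.

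*S. benedicti* is a marine annelid with 2 kinds of females. Planktotrophic females lay many small eggs that become feeding larvae, and lecithotrophic females lay few large, yolk-rich eggs. PP oocytes (7 libraries) came from planktotrophic females of laboratory stock from Bayonne, New Jersey, and LL oocytes (7 libraries) from lecithotrophic females of stock from Long Beach, California. PL and LP oocytes (5 libraries each) came from F1 females of the reciprocal crosses, with the allele from the mother written first. All females were kept alone, so that no egg was fertilized, and each library pooled the clutch of 1 female according to the methods. The age of the females is not given in the sources used here. Reads of all groups were aligned to the planktotrophic genome. According to the methods, F1 libraries and parental libraries were sequenced in different runs.

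An unfertilized egg holds mRNA that its mother made, and the first divisions run on this store before the genome of the embryo is transcribed. Genes used by every cell, such as those for metabolic enzymes and the cytoskeleton, are often taken as references of constant level against which other genes are read. A gene that keeps its level among clutches, morphs and crosses could only be found by measuring its spread, and a CPM is a share of a library, so it does not give the amount of RNA in an egg. In pooled oocytes, fewer cells of a kind and less RNA per cell cannot be told apart. The files pair no gene names with the identifiers, so the steadiest genes are given by identifier, no role is given to them, and the label "oocyte" could not be checked against marker genes.

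Between 7489256 counts, in a PL library, and 43609048 counts, in a PP library, fell on genes. PP replicate 2 had the lowest share of aligned reads, 33.9%, against up to 79.7% elsewhere. In all, 13 libraries, which are the 10 of F1 females, PP replicate 7 and LL replicates 6 and 7, carry a label of 2 technical replicates, and the other 11 do not. The identifiers of PP replicates 5 and 6, of LP replicates 1 to 3 and of PL replicates 3 to 5 share a stem, and the sources used here do not say whether a stem stands for sisters, for repeat clutches or for repeat libraries of 1 female. If it stands for 1 female, PP, PL and LP hold fewer females than libraries. With the libraries of a stem summed, 120 of the 150 genes were chosen again. Counts differed by more than sampling noise in each of the 62 pairs of libraries within a group.

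The steadiest genes had CVs between 12.8% and 19.0% (median 17.3%), and the median over all eligible genes was 38.1%. The highest library of such a gene was 1.54 to 2.70 times its lowest (median 1.95), whereas the median ratio was 4.77 over the 5046 eligible genes with a count in every library. Counting error made up between 0.128% and 9.42% of the variance of a steady gene (median 0.875%). The remaining variance can hold differences between clutches, morphs, crosses and sequencing runs and in the handling of the libraries. Clutch and handling cannot be told apart here, and the other parts were not separated. No steady gene had fewer than 137 counts in any library.

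The limit of 150 does not mark a gap. The last genes inside it were Sbene_G15433 with a CV of 18.97%, Sbene_G17432 with 18.99% and Sbene_G13890 with 19.03%. The first genes outside it were Sbene_G03864 with 19.04%, Sbene_G02223 with 19.08% and Sbene_G14485 with 19.10%. The genes on both sides of the limit were thus alike in spread.

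Steadiness went along with a high count. Of the 1810 eligible genes with a mean of 10 to 30 CPM 1 was among the steadiest (0.0552%), and their median CV was 45.9%. Of the 1807 genes at 30 to 100 CPM 30 were (1.66%), with a median CV of 37.1%. Of the 1026 genes at 100 to 300 CPM 56 were (5.46%), with a median CV of 32.1%, and of the 453 genes above 300 CPM 63 were (13.9%), with a median CV of 28.0%. The steadiest genes had mean levels between 18.0 and 1368 CPM (median 247), and the eligible genes had a median of 47.4 CPM. CPM is not divided by gene length, so these bins rank genes by reads and not by molecules.

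**Figure D1:**
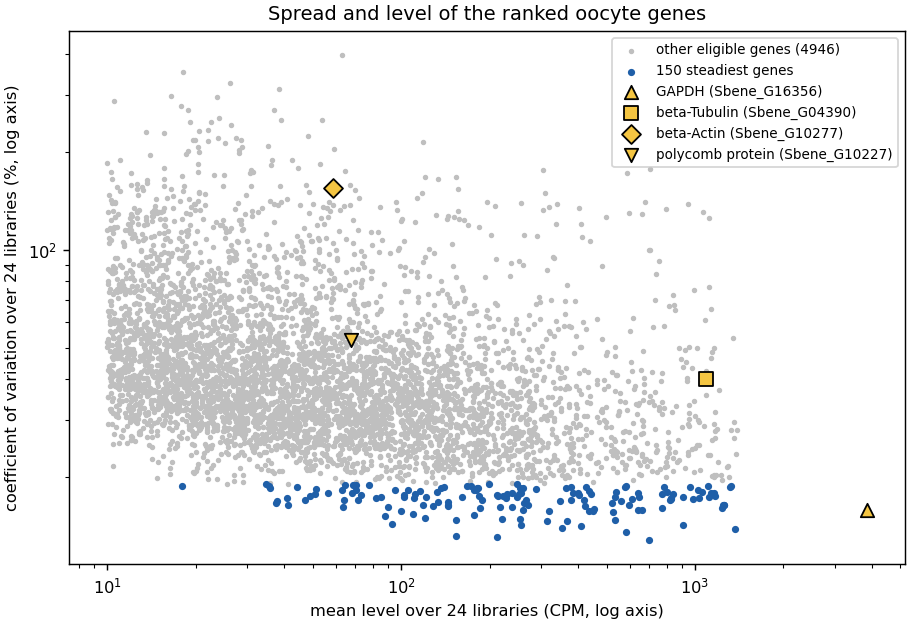
Each point is a gene, with its mean level over the 24 libraries in CPM on the horizontal log axis and its CV over the 24 libraries in percent on the vertical log axis. The 150 steadiest genes lie at or below 19.0% and mostly at the right of the cloud. Of the marked genes, Sbene_G16356 lies within their range of CV but to the right of all of them. The marked genes Sbene_G04390, Sbene_G10277 and Sbene_G10227, a polycomb protein gene, lie above them.

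Sbene_G12369 had the lowest CV, 12.8%, with a mean of 699 CPM. It had 641 to 860 CPM in the PP libraries (median 700.5), 587 to 813 CPM in LL (median 781), 564 to 802 CPM in PL (median 664) and 558 to 778 CPM in LP (median 708). Its lowest library was LP replicate 5 and its highest PP replicate 3, and all 4 groups overlapped.

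Sbene_G09588 was the next, with a CV of 13.1% and a mean of 213 CPM. It had 184 to 237 CPM in PP (median 212) and 190.2 to 266 CPM in LL (median 216). In PL it had 160, 266, 206, 188 and 192 CPM in replicates 1 to 5, and in LP 187, 233, 257, 196 and 210.0 CPM. PL replicate 1 was its lowest library, and the highest libraries, LL replicate 6 and PL replicate 2, were of different groups.

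Sbene_G06493 had a CV of 13.2% and a mean of 154 CPM. It had 126 to 169 CPM in PP (median 152) and 139 to 186 CPM in LL (median 158). In PL it had 164, 170.0, 124, 112 and 116 CPM in replicates 1 to 5, and in LP 184, 182, 149, 151 and 152 CPM. PL replicates 3, 4 and 5 were its 3 lowest libraries. When the library sizes were scaled by TMM, which sets most genes level between libraries rather than the total, its CV was 8.91%, the lowest of all eligible genes on that scale.

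The other 7 of the 10 lowest CVs fell between 13.6% and 14.3%. Sbene_G15936 had a mean of 583 CPM and ranged from 382 CPM in PP replicate 2 to 699 CPM in PP replicate 6, so that both its extremes were PP clutches. Sbene_G21186 had the highest mean of the steadiest genes, 1368 CPM, with 1029 to 1464 CPM in PP (median 1252) and 1255 to 1865 CPM in LL (median 1504). Sbene_G04184 ranged from 656 CPM in PL replicate 3 to 1153 CPM in PP replicate 6 around a mean of 911 CPM. Sbene_G20457 (mean 352 CPM), Sbene_G06054 (408 CPM), Sbene_G07892 (256 CPM) and Sbene_G15171 (93.1 CPM) completed the 10, and the groups overlapped in each of them, as the rule required for PP and LL and for PL and LP.

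At the low end of expression, Sbene_G06235 was the single steadiest gene under 30 CPM. It had 12.4 to 19.6 CPM in PP (median 16.2), 16.6 to 23.7 CPM in LL (median 18.6), 13.6 to 20.8 CPM in PL (median 16.2) and 15.5 to 24.5 CPM in LP (median 19.6). Counting made up 9.42% of its variance, the largest share among the 150, followed by 5.70% for Sbene_G04770 with a mean of 37.6 CPM. Sbene_G15433 and Sbene_G12447 had the next lowest means, 34.8 and 35.4 CPM. Among the genes of 30 to 100 CPM, Sbene_G15171 and Sbene_G04936 had the lowest CVs, and Sbene_G04936, with a mean of 88.0 CPM, had its lowest value of 61.0 CPM in PL replicate 4 and its highest of 115 CPM in LL replicate 3.

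At the high end, Sbene_G07811 (mean 1326 CPM) and Sbene_G20861 (mean 1313 CPM) followed Sbene_G21186, and counting made up 0.13% of the variance of each. Sbene_G07811 had 1190 to 1842 CPM in PP and 952 to 1594 CPM in LL, and Sbene_G20861 had 927 to 1740 CPM in PP and 984 to 1383 CPM in LL. Their spread in PP was wider than in LL for Sbene_G20861 (SD 297 against 155) and the same for Sbene_G07811 (SD 252 in each, n = 7).

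The enzyme glyceraldehyde-3-phosphate dehydrogenase, a step of glycolysis and a common reference in expression studies, was measured on the same scale. The names of the reference genes come from the description of the study and not from the deposited files. The gene of this enzyme, Sbene_G16356, had a CV of 15.9% and a mean of 3835 CPM, and 26 of the 150 genes varied less than it and 124 more. With TMM scaling its CV was 17.70%, and the median CV of the 150 was 17.65%. Sbene_G16356 could not be chosen, since its mean ranked 24 among all genes and the rule names it as left out. It had 3883 ± 956 CPM in PP, 3747 ± 440 CPM in LL, 3690 ± 479 CPM in PL and 4038 ± 374 CPM in LP (SD, n = 7, 7, 5 and 5).

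The other reference genes varied more than any of the 150. A beta-Tubulin, Sbene_G04390, had a CV of 40.2% with a mean of 1091 CPM, and 2802 eligible genes varied less. For Sbene_G10277, a beta-Actin, the 13 labelled libraries held no count, where 3 counts would be 0.093 to 0.401 CPM. In the 11 unlabelled libraries it had 21.1 to 302 CPM with a CV of 74.8%, so its CV of 155% over all libraries includes a split by the label. A second beta-Tubulin, Sbene_G09986, had a mean of 0.176 CPM, below the minimum for an eligible gene. The polycomb protein gene Sbene_G10227, which the rule leaves out, had a CV of 52.7%, with 37.5 ± 22.3 CPM in PP and 111 ± 20.2 CPM in LL (SD, n = 7 each).

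Within each group the steadiest genes varied less than eligible genes in general, which the choice over all 24 libraries leads to. Their median CV over the PP libraries was 17.3% (eligible genes 37.0%) and over the LL libraries 14.5% (30.5%), while it was 16.5% (35.2%) over the PL libraries and 14.4% (33.8%) over the LP libraries. PP was the group of widest spread in both sets. Over all 14 parental libraries the median CV of the steadiest genes was 16.8% (eligible genes 36.6%), and over the 10 F1 libraries 16.5% (36.8%). For the steadiest and the eligible genes alike, these pooled values were near those of PP and PL and above those of LL and LP.

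**Figure D2:**
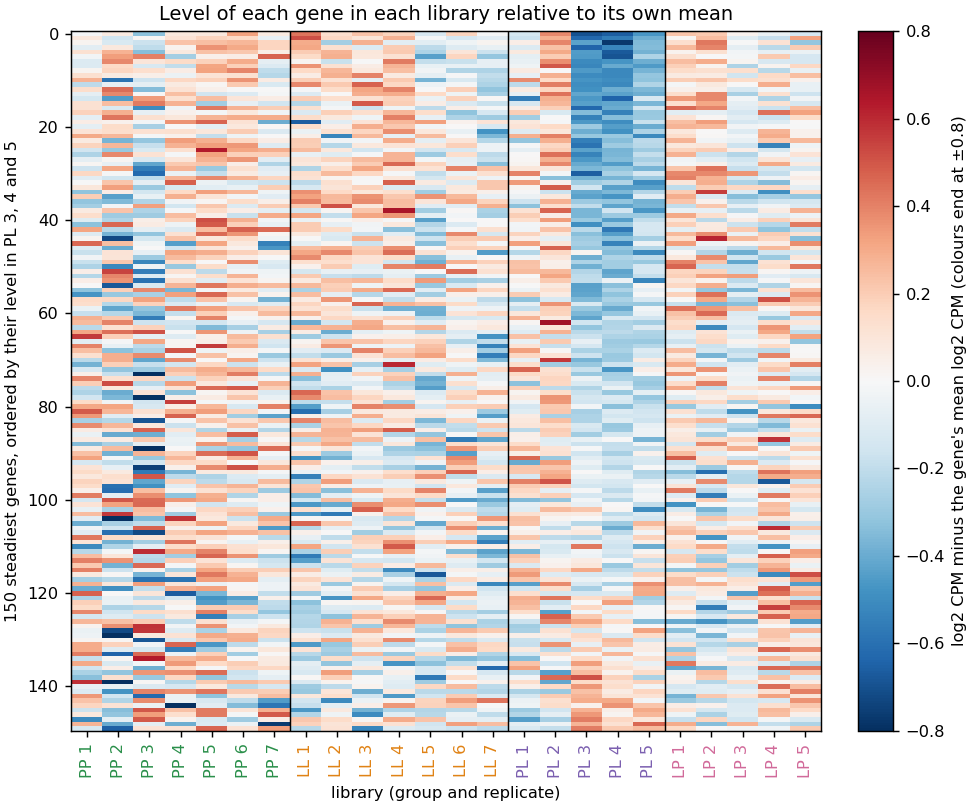
Rows are the 150 steadiest genes, ordered by their level in PL replicates 3, 4 and 5, and columns are the 24 libraries. Colour is log2 CPM minus the mean log2 CPM of that gene, and the 3 columns PL 3, PL 4 and PL 5 are blue, below the mean, for most rows.

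What variation remained was partly common to the 150 genes. The median deviation of their log2 CPM from the mean of each gene was -0.18 in PL replicate 3, -0.25 in PL replicate 4 and -0.15 in PL replicate 5, and between -0.07 and 0.17 in the other 21 libraries. In these 3 libraries 36, 27 and 35 of the 150 genes were above their own mean. Of the 150 genes 45 were lowest in 1 of these libraries, against 21.2% of the eligible genes, and 3 were highest there. These libraries were singled out after their values were seen, and they share a stem of their identifiers.

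The share of counts taken by the most abundant genes also differed in these libraries, and its part in the low values was not tested. The 100 genes with the highest means held 46.7% of the counts in PL replicate 3, 50.7% in PL replicate 4 and 43.3% in PL replicate 5, and between 30.6% and 40.9% in the other libraries. The lowest shares were 30.6% in LP replicate 2, 31.0% in LP replicate 1, 31.9% in PL replicate 2 and 33.2% in PP replicate 3. The median deviations of the 150 genes in these libraries were 0.03, 0.10, 0.13 and -0.07, in that order. The median deviation of all eligible genes was -0.27, -0.32 and -0.14 in PL replicates 3, 4 and 5. With TMM scaling the direction turned, and the steadiest genes had median deviations of 0.17, 0.10 and 0.07 there, while PP replicates 5 and 6 were at 0.24 and 0.23. Which of the scales is nearer to the amount of mRNA in the eggs cannot be told from these files. Together the 150 genes held between 4.99% and 6.64% of the counts of a library.

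**Figure D3:**
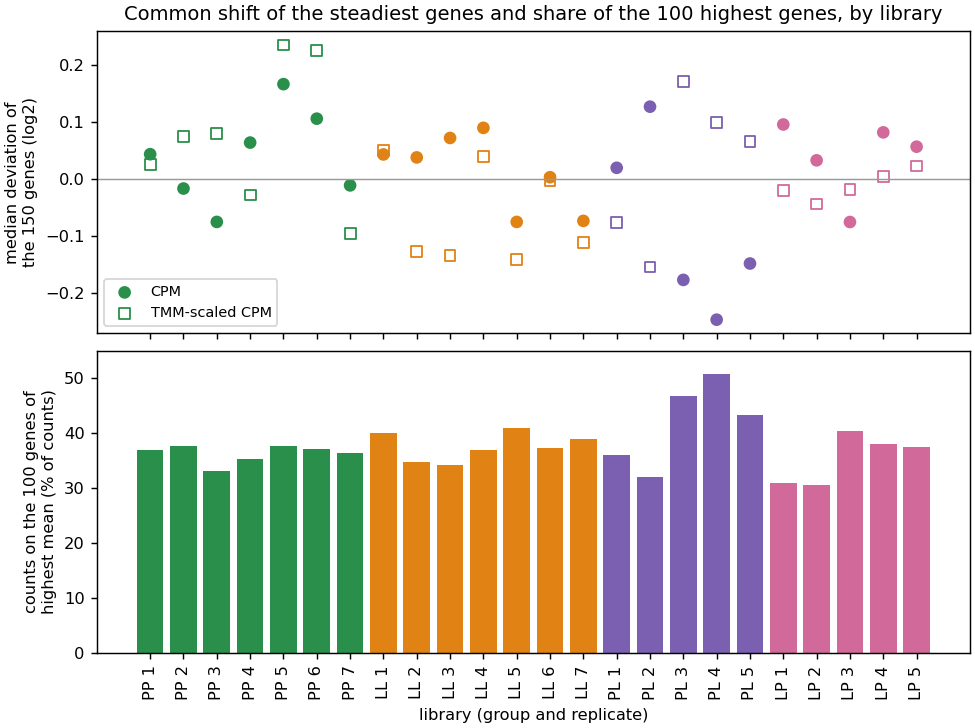
The upper panel gives for each library the median deviation of the 150 steadiest genes from their own means on the log2 scale, as filled circles for CPM and open squares for TMM-scaled CPM, and the lower panel gives the percent of counts on the 100 genes of highest mean. PL replicates 3 to 5 are lowest in CPM (-0.15 to -0.25), have the tallest bars (43.3% to 50.7%) and lie above 0 with TMM.

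PP replicates 2 and 3 stood apart in another way. Of the 150 genes 19 were lowest in PP replicate 2 (12.7%, against 18.7% of the eligible genes). The 150 were thus lowest there less often than eligible genes in general. PP replicate 3 was the lowest library of 15 of the 150, against 8.24% of the eligible genes. The medians of the 150 in these 2 libraries were close to 0, at -0.02 and -0.07. Single genes in PP replicates 2 and 3 lay further from their means in either direction, with an SD over the 150 genes of 0.32 and 0.34 on the log2 scale. In these libraries 138 and 137 of the genes were within 1.5-fold of their own mean. In 10 of the 24 libraries all 150 genes lay within 1.5-fold of their mean. The part of the low share of aligned reads of PP replicate 2 in these values was not tested.

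The 150 genes did not move as one block. Over all 11175 pairs the median Pearson correlation of log2 CPM across the 24 libraries was 0.13, with a range from -0.70 to 0.89, and 65.0% of the pairs were above 0. The first principal component held 23.4% of their variance and the second 13.1%, and PL replicates 3, 4 and 5 had the 3 highest scores on the first. All pairs share the same libraries and the same totals, so these correlations describe these libraries and carry no test.

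The pairs with the highest correlations were Sbene_G21395 with Sbene_G08246 (r = 0.89) and Sbene_G09779 with Sbene_G03029 (r = 0.89). Sbene_G21395 had 442, 515, 306, 262 and 321 CPM in PL replicates 1 to 5, and Sbene_G08246 had its lowest value, 259 CPM, in PL replicate 3 and 548 CPM as the highest in PL. Sbene_G09779 and Sbene_G03029 shared instead their highest library, PP replicate 3, at 1295 and 1644 CPM. The lowest correlations were those of Sbene_G06633 with Sbene_G15106 (r = -0.70) and of Sbene_G17219 with Sbene_G15650 (r = -0.68). In PP replicate 3 Sbene_G06633 had its highest value, 525 CPM, and Sbene_G15106 its lowest, 225 CPM.

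Most of what is said above used the same values that chose the genes. The spread was therefore also read in libraries that a choice did not use. The rule was run on the 11 PP and LL libraries without the label of technical replicates, and the CV of the 150 genes it picked was read in the 13 others, which hold all F1 libraries. The median CV of these genes was 14.7% in the libraries that chose them and 22.9% in the others (range 10.3% to 48.5%), where the eligible genes had 36.3%. Of these genes 59 (39.3%) were below the 10th percentile of the eligible genes in the unused libraries and 140 (93.3%) below their median. The eligible genes were not matched to the chosen genes by level. Over the 24 libraries their median CV was 45.9% at 10 to 30 CPM and 28.0% above 300 CPM. The part of level in the difference was not tested. Genes are not independent replicates, and no test is given.

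The reverse choice gave a like picture in the medians, with a wider range. With the overlap rule for PL and LP only, 150 genes were chosen on the 13 labelled libraries. Their median CV was 21.4% in the 11 others (range 7.23% to 111.7%), and that of the eligible genes, again not matched by level, was 37.1%. Of these genes 142 (94.7%) were below the median of the eligible genes there, and the highest was at their 97.5th percentile. This form of the rule was set after the values were seen, because 1 PP and 2 LL libraries rarely overlap. Of the 150 steadiest genes 66 were chosen again on the 11 libraries, 85 on the 13 and 25 on both.

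**Figure D4:**
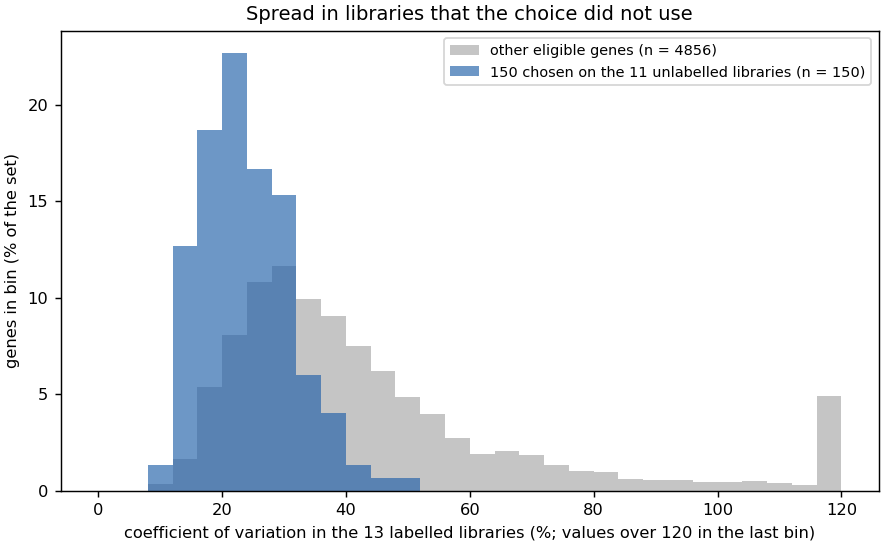
The histogram shows the CV in the 13 labelled libraries, in percent, for the 150 genes chosen on the 11 unlabelled libraries and for the other eligible genes, with the percent of each set on the vertical axis. The chosen genes gather at low values around their median of 22.9%, and the others spread mostly above it, around the eligible median of 36.3%.

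Of the 150 genes 100 were chosen again whichever single library was left out. Under all of 11 other forms of the rule over the 24 libraries, with other scalings, other measures of spread and other limits, 24 were chosen each time. The genes that met both of these and were also chosen on the 11 and on the 13 libraries alone numbered 11. They are Sbene_G09588, Sbene_G06493, Sbene_G04184, Sbene_G05878, Sbene_G02360, Sbene_G03056, Sbene_G11617, Sbene_G04235, Sbene_G13650, Sbene_G15652 and Sbene_G09527. This list came from the same values and is a description.

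These 11 genes differed in level, and all had means above 47.4 CPM, the median of the eligible genes. Sbene_G03056 had the lowest mean, with 84.5 to 130 CPM in PP (median 99.9), 80.8 to 114 CPM in LL (median 94.3), 75.2 to 123 CPM in PL (median 86.6) and 90.6 to 124 CPM in LP (median 113). Sbene_G04184 had the highest, 911 CPM, and Sbene_G04235 had 774 CPM, with 664 to 1003 CPM in PP (median 839), 645 to 916 CPM in LL (median 810), 535 to 802 CPM in PL (median 590) and 654 to 847 CPM in LP (median 836). In the 11 unlabelled libraries Sbene_G04235 had a CV of 9.12%, and in the 13 labelled libraries 15.6%.

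Between them lay 5 genes of 200 to 400 CPM. Sbene_G05878 had 313 to 487 CPM in PP (median 391) and 270 to 416 CPM in LL (median 348). Sbene_G02360 ranged from 236 to 403 CPM over all libraries, with CVs of 14.1% in the unlabelled and 14.5% in the labelled libraries. Sbene_G11617 ranged from 170 to 329 CPM and Sbene_G15652 from 191 to 363 CPM, and with Sbene_G09588 they completed these 5. Sbene_G13650 had a mean of 129 CPM and ranged from 84.4 to 161 CPM. Sbene_G09527, with a mean of 521 CPM, had a CV of 15.3% in the unlabelled and 10.3% in the labelled libraries.

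The morphs were compared in an edgeR fit of the 14 PP and LL libraries. The rule had removed genes whose PP and LL libraries did not overlap and had taken the lowest CVs over libraries that include these 14. Small differences, small standard errors and few calls follow from that choice, here and in the 3 comparisons after it, so the values describe the 150 genes and the shares over all genes are no test of them. By edgeR 334 of 9392 genes (3.56%) passed both an adjusted p of at most 0.05 and a 1.5-fold limit between the morphs, and 339 (3.61%) passed the adjusted p alone. None of the 150 did by either call, with 14 at an unadjusted p under 0.05 (9.33%, against 18.0% of all genes tested), and DESeq2 called 0 with the fold limit (8.33% of all genes it tested) and 2 without it (8.64%). The fitted log2 fold changes of the 150, PP over LL, lay between -0.29 and 0.45. Their median was 0.10, against 0.02 over all genes. Of the 150 genes 108 were above 0, and the number above 0 over all genes was not counted. As log2 ratios of mean CPM, without TMM, the medians were 0.03 for the 150 and 0.0072 for the eligible genes. The 95% interval lay within 1.5-fold in both directions for 112 of the 150 (74.7%), and for 7.58% of all genes tested.

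The largest differences in this comparison were still of some size. Sbene_G10167 had 748 to 1334 CPM in PP (median 1113) and 688 to 1001 CPM in LL (median 805), and the fitted log2 ratio was 0.45 with a standard error of 0.16 (edgeR, adjusted p = 0.128). Sbene_G19377 had 626 to 1163 CPM in PP (median 965) and 607 to 897 CPM in LL (median 690), and the fitted log2 ratio was 0.44 with a standard error of 0.16 (edgeR, adjusted p = 0.144). For both genes 5 of the 7 PP libraries lay above every LL library, and the groups overlapped.

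In the other direction, Sbene_G21298 had 702 to 993 CPM in PP (median 879) and 958 to 1184 CPM in LL (median 1069), and the fitted log2 ratio was -0.29 with a standard error of 0.12 (edgeR, adjusted p = 0.210). Only PP replicate 6, at 993 CPM, lay above the lowest LL library. Sbene_G03554 had 437 to 645 CPM in PP (median 562) and 608 to 782 CPM in LL (median 695), and the fitted log2 ratio was -0.27 with a standard error of 0.14 (edgeR, adjusted p = 0.337). The intervals of these 4 genes reach past 1.5-fold for Sbene_G10167 and Sbene_G19377 only, up to 0.78 and 0.77 on the log2 scale.

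**Figure D5:**
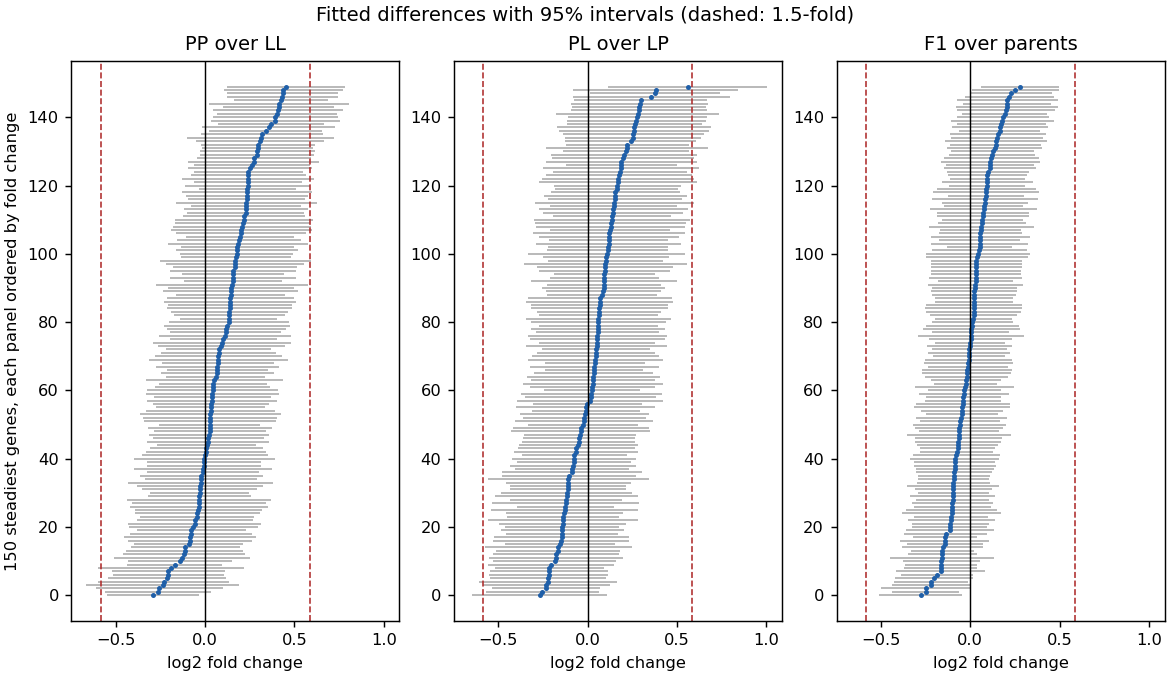
Each row of a panel is 1 of the 150 steadiest genes, ordered by its fitted log2 fold change (point) with its 95% interval (line), for PP over LL, PL over LP and F1 over parents. Dashed lines mark 1.5-fold in both directions, and all 150 intervals lie between them for F1 over parents, 122 for PL over LP and 112 for PP over LL.

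The reciprocal crosses were compared in an edgeR model of the 24 libraries that estimated 4 means, and a gene was called below an adjusted p of 0.1. By edgeR 2 of 10782 genes (0.0185%) passed this and the 1.5-fold limit between PL and LP, and the same number passed the adjusted p alone (0.0185%). None of the 150 did, 2 had an unadjusted p under 0.05 (1.33%, against 7.38% of all genes tested), and DESeq2 called 0 of them (0.880% of all genes it tested). Their fitted log2 fold changes, PL over LP, lay between -0.27 and 0.56, with a median of 0.05, as over all genes (0.05). The 95% interval was within 1.5-fold for 122 (81.3%), against 5.75% of all genes tested. As log2 ratios of mean CPM the medians were -0.09 for the 150 and -0.12 for the eligible genes. The fitted ratios use TMM scaling and the CPM values given beside them do not, so they can differ. The rule had used this contrast as well, both in its overlap filter and in the CV.

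Sbene_G15433 had the highest fold change of the 150 in this comparison. It had 30.3, 44.7, 42.4, 38.2 and 27.0 CPM in PL replicates 1 to 5, and 25.8, 24.6, 26.1, 37.0 and 25.1 CPM in LP replicates 1 to 5, and the fitted log2 ratio was 0.56 with a standard error of 0.22 (edgeR, adjusted p = 0.581). LP replicate 4 lay within the PL range, and the other 4 LP libraries lay below all PL libraries. Sbene_G09151 followed, with 242 to 308 CPM in PL (median 274) and 203 to 320.4 CPM in LP (median 226), and the fitted log2 ratio was 0.38 with a standard error of 0.22 (edgeR, adjusted p = 0.718).

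In the other direction were Sbene_G20699 and Sbene_G08180. Sbene_G20699 had 142 to 167 CPM in PL (median 152) and 155 to 258 CPM in LP (median 219), and the fitted log2 ratio was -0.27 with a standard error of 0.18 (edgeR, adjusted p = 0.761), or -0.18 without LP replicate 4, its highest LP library. Sbene_G08180 had 505 to 927 CPM in PL (median 620) and 679 to 1032 CPM in LP (median 908), and the fitted log2 ratio was -0.25 with a standard error of 0.15 (edgeR, adjusted p = 0.724). The groups overlapped in both.

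Oocytes of F1 females were then set against those of the parental morphs, as the mean of PL and LP over the mean of PP and LL. Cross and sequencing run cannot be told apart in this contrast. The label of 2 technical replicates is carried by all F1 libraries and by 1 PP and 2 LL libraries, and what it says about runs is not stated. The CV that chose the 150 genes was taken over these same 24 libraries, which limits any difference here. By edgeR 122 of 10782 genes (1.13%) passed the same limits, and 126 (1.17%) passed the adjusted p alone. None of the 150 did, 6 had an unadjusted p under 0.05 (4%, against 12.5% of all genes), and DESeq2 called 0 with the fold limit (3.76% of all genes it tested) and 1 without it (3.96%). The log2 fold changes of the 150 lay between -0.28 and 0.28, and all 150 intervals were within 1.5-fold, against 21.1% over all genes tested. In the 13 labelled libraries alone, which hold 1 PP library, the median log2 fold change of the 150 was 0.10, against 0.11 over all genes tested.

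The largest of these differences did not pass the test and lay within overlapping groups. Sbene_G15209 had 299 to 462 CPM in PP (median 391), 348 to 529 CPM in LL (median 414), 419 to 608 CPM in PL (median 443) and 399.7 to 608 CPM in LP (median 463), and the fitted log2 ratio was 0.28 with a standard error of 0.11 (edgeR, adjusted p = 0.262). The fitted log2 ratio of Sbene_G07489 was 0.25 with a standard error of 0.12 (edgeR, adjusted p = 0.375), and its levels were 226 ± 33.2 CPM in PP, 239 ± 37.1 CPM in LL, 281 ± 60.8 CPM in PL and 256 ± 27.7 CPM in LP (SD). No F1 library of Sbene_G15209 lay below 399.7 CPM, the parental libraries reached 529 CPM, and the groups overlapped.

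Lower in F1 oocytes were the fitted values of Sbene_G06002 and Sbene_G09720. Sbene_G06002 had 119 to 167 CPM in PP (median 145), 98.5 to 183 CPM in LL (median 157), 94.3 to 151 CPM in PL (median 115) and 102 to 136 CPM in LP (median 120), and the fitted log2 ratio was -0.28 with a standard error of 0.11 (edgeR, adjusted p = 0.305). Sbene_G09720 had 1014 ± 158 CPM in PP, 1196 ± 114 CPM in LL, 892 ± 150 CPM in PL and 920.1 ± 180.0 CPM in LP (SD), and the fitted log2 ratio was -0.25 with a standard error of 0.09 (edgeR, adjusted p = 0.241). Neither passed the test, and both values were nearer 0 once the label was taken into account. With the label as a covariate they were -0.0040 for Sbene_G06002 and -0.09 for Sbene_G09720, and in the 13 labelled libraries alone -0.04 and -0.08.

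No steady gene separated F1 from parental libraries without overlap, and 0.0196% of the eligible genes did. The same held for the pairs of 1 parent and 1 cross. None of the 150 separated PP from PL, LL from LP, PP from LP or LL from PL, and 0.805%, 1.39%, 0.667% and 0.903% of the eligible genes did. Since a separated gene has a larger CV, the choice lowers these counts. As given above, 16 of the 150 did separate PL replicates 3, 4 and 5 from the other 21 libraries.

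The label of 2 technical replicates was read within the parental libraries, where PP replicate 7 and LL replicates 6 and 7 carry it, with the morph in the model. By edgeR 158 of 12803 genes (1.23%) passed the limits used for the morphs between labelled and unlabelled libraries, and the number was the same at the adjusted p alone (1.23%). None of the 150 did, 9 had an unadjusted p under 0.05 (6%, against 12.5% of all genes), and DESeq2 called 0 of them (4.05% of all genes it tested). The choice by CV used all of these libraries, so few calls are built in. Their median log2 fold change, labelled over unlabelled, was -0.14 against -0.01 over all genes. Of the 150 genes 39 were above 0, and the number above 0 over all genes was not counted. Without PP replicate 7 that median was 0.0048. Across all 24 libraries none of the 150 separated the 13 labelled from the 11 unlabelled libraries, and 0.765% of the eligible genes did.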

How the data were processed

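The authors deposited 1 file of counts per library, whole numbers per gene without normalization. According to the methods they trimmed reads with TrimGalore, removed rRNA reads with SortMeRNA, aligned with HISAT2 to the planktotrophic genome and counted with HTSeq-count, with strand. Versions and the build are not given in the sources used here. Rows that name no gene were left out of all totals.

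CPM, CVs and the choice of genes were computed from the counts. Genes with low counts were removed by edgeR's filter (edgeR version 4.0.16, under R version 4.3.3), library sizes were scaled by TMM, and contrasts were tested by quasi-likelihood, with p adjusted by Benjamini-Hochberg over all genes tested and thresholds after the methods. DESeq2 (version 1.42.0) was an alternative. The authors' RUVg step was not repeated. Libraries are separate clutches according to the methods.

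The 150 genes and the lists were chosen with earlier results of these data known. Genes named are the 10 lowest CVs, the 2 lowest in each bin of level, the 3 highest and lowest means, the 3 at each side of the limit, the 2 largest fold changes in each direction of the comparisons of PP with LL, PL with LP and F1 with parents, the 2 extremes of counting share, the 2 most and least correlated pairs, and reference genes. The 11 genes chosen under 11 other forms of the rule, with each library left out and on the 11 and the 13 libraries alone, were added after their values were seen. Lists by product name were not used, since no names were at hand. Other scalings, measures of spread, limits, library sets, covariates, a replicate block and each library left out in turn were tried.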

Additional observations from a re-analysis of the deposited data

Results flagged for a closer look

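Single libraries were set against the others of their group for the named genes. A library was singled out where its gap to the next was large for the range of a group of that size, by Dixon's test at 95%, which chance passes in about 1 of 20 groups. Over the 150 genes and 4 groups 26 of 600 sets of values passed (4.33%), and 10 of 152 sets did for the named genes.

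In the parental groups, Sbene_G15171 had 85.1 CPM in PP replicate 7 (other PP libraries 98.0 to 106 CPM), and Sbene_G21395 had 329 CPM in PP replicate 3 (others 435 to 506 CPM). Sbene_G07489 had 165 CPM in LL replicate 5 (others 234 to 278 CPM), and Sbene_G09720 had 962 CPM in LL replicate 7 (others 1165 to 1292 CPM). All 4 were low in their group. Sbene_G13890 had 254 CPM in LL replicate 6 (others 150.2 to 191 CPM), above its group.

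In the crosses the named genes singled out were high. In PL replicate 2 Sbene_G21298 had 1087 CPM (other PL libraries 689 to 800.1 CPM) and Sbene_G15650 had 149 CPM (others 103 to 116 CPM), and of the 26 sets 6 were of this library, which has the lowest number of counts. The low value among these 6 was that of Sbene_G01518, a gene outside the naming rule, at 54.1 CPM (others 78.1 to 82.0 CPM). In LP replicate 4 Sbene_G15433 had 37.0 CPM (other LP libraries 24.6 to 26.1 CPM) and Sbene_G13890 had 296 CPM (others 205 to 228 CPM). Sbene_G09151 had 320.4 CPM in LP replicate 5 (others 203 to 229 CPM).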

How the results depend on the processing

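The choice depends on the scale, the measure and the libraries. Of the 150 genes 90 were chosen again with TMM, 99 with the median of ratios, 58 with the median absolute deviation over the median, 66 on the 11 unlabelled libraries, 44 on the 13 labelled libraries and 85 on those with the overlap rule for PL and LP only, which was added after seeing the data, as was leaving out PL replicates 3, 4 and 5 together (113). Leaving out 1 library at a time kept 124 to 145 of them, and their median CV was then 16.9% to 17.6%. The genes chosen on the 11 libraries had a median CV of 20.4% in the others with TMM, and those chosen on the 13 libraries by the unaltered rule, for which 1395 genes were eligible, had 23.6%. The number of the 150 called was 0 in all 4 comparisons under every alternative run with the fold limit, with 0 to 0 when single libraries were left out. Without the fold limit edgeR called 1 between PP and LL without PP replicate 2 (4.01% of all genes tested) and 1 with all 24 libraries in the fit (5.72%). The counts over all genes moved more. Between PP and LL DESeq2 called 1054 genes and the fit of 24 libraries 603, and leaving out single libraries gave 170 (LL replicate 2) to 506 (PP replicate 3), with 187 to 206 without PP replicate 5 or 6 or LL replicate 1 or 3. DESeq2 called 102 genes between PL and LP, 492 between F1 and parents and 478 between labelled and unlabelled libraries. Without the filter on low counts edgeR called 5, 388 and 315 in these. Between F1 and parents 0 genes were called with the label as a covariate and 234 or 365 without LL replicate 7 or PP replicate 7, and between PL and LP 0 in the 10 libraries alone and 0 to 8 with single libraries left out. Between labelled and unlabelled libraries it was 71, 96 and 69 without PP replicate 7, LL replicate 6 and LL replicate 7. Whether the replicate numbers pair the libraries was not tested. The correlation of same-numbered deviations was -0.02 to 0.44 for PP and LL and -0.08 to 0.21 for PL and LP. Libraries of unlike number were not compared. A fit with the replicate block called 0 of the 150 in both comparisons, and 171 and 1 of all genes. The causes of these shifts were not tested.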
